A study of Mus musculus with 12 samples.

Results

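Lipins and adipose triglyceride lipase stand on either side of the triglyceride pool, and their transcripts were followed here through 10 array probes. All probes annotated to Lpin1, Lpin2, Lpin3 and Pnpla2 were taken, 10 of the 45281 probes on the array. Of these, 6 were detected on enough arrays to be kept, and they give values for 4 of the 9153 genes measured. The genes were chosen with their responses in these samples known, so their values are given as a description and without a test.

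The cells were MC3T3 sc4, a clonal derivative of the MC3T3 pre-osteoblast line from mouse calvaria, and RNA of 12 samples was measured on an Illumina BeadChip. All cells had been kept after confluence in osteogenic medium, which contains beta-glycerophosphate and ascorbic acid. At day 4 they received 20 µM SAHA (suberoylanilide hydroxamic acid, or vorinostat, which inhibits the zinc-dependent histone deacetylases) for 2 h or 6 h, or its solvent DMSO alone, with 4 samples in each of these 3 groups. The agent was kept on during the collagenase digestion before harvest. The labels give the DMSO samples no time and describe the treatment for 2 h alone, so hours in culture and hours in SAHA cannot be told apart. The cells are 1 subclone of 1 line, and the labels do not say whether the 4 samples of a group were separate cultures. Spreads and p-values therefore measure only the variation between these samples.

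Lipins are phosphatidate phosphatases: they remove the phosphate from phosphatidate and give diacylglycerol, from which cells make triglyceride, phosphatidylcholine and phosphatidylethanolamine. Lipin 1 is also known in mouse liver as a nuclear partner of the regulators PPARα and PGC-1α. Pnpla2 encodes adipose triglyceride lipase, which carries out the first step of triglyceride hydrolysis at the lipid droplet and returns diacylglycerol and a free fatty acid. In fat tissue its activity depends on the coactivator encoded by Abhd5 and is held back by the inhibitor encoded by G0s2.

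The start regions of the genes with the larger changes are shown as the RefSeq table for build GRCm38.p6 gives them. They do not show where the array probes lie. RefSeq holds 7 windows for the 4 genes, each of 300 bases, from 250 before to 50 after an annotated start. Capitals mark every match, on either strand, to 5 short motifs: the GC box GGGCGG, the CCAAT box, the E-box CACGTG, the forkhead motif TGTTTAC and the AP-1 motif TGACTCA. None of the 5 overlaps another in the windows printed. Pnpla2 lies at chr7:141455188-141460743 on the forward strand, Lpin2 at chr17:71183532-71249818, and Lpin3 at chr2:160880670-160906000. The windows printed are chr7:141454938-141455237 for Pnpla2, chr17:71183282-71183581 for Lpin2, and chr2:160880420-160880719 and chr2:160887918-160888217 for the first and second start of Lpin3, all on the forward strand.
Pnpla2: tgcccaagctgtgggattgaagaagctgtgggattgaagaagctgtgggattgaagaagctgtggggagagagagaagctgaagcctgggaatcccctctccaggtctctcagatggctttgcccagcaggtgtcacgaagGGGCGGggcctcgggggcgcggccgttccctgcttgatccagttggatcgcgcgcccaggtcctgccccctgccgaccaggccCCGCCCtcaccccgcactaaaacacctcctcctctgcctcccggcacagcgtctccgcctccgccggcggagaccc
Lpin2, first start: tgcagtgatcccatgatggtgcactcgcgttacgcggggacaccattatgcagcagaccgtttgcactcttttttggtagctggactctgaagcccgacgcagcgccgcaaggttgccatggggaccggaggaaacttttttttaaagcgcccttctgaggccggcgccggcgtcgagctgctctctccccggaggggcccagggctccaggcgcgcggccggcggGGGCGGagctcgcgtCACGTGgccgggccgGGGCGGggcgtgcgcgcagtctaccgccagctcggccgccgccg
Lpin3, first start: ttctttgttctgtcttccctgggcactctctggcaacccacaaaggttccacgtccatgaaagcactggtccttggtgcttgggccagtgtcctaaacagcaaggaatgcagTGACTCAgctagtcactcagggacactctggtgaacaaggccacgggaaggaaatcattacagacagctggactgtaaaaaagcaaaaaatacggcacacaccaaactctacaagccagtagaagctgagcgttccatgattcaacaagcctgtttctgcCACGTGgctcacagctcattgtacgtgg
Lpin3, second start: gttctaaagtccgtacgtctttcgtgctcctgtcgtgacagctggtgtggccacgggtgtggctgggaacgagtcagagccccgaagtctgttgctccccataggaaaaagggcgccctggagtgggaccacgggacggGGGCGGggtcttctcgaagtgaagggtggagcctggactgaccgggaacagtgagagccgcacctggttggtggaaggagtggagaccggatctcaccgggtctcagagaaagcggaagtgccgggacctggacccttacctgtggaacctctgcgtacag

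The Pnpla2 window has a GC content of 65.3% and holds 2 GC boxes, and the first Lpin2 window, at 68.7%, holds 2 GC boxes and 1 E-box. The first Lpin3 window is less rich in G and C, at 50.0%, and holds 1 E-box and 1 AP-1 motif, while the second, at 61.7%, holds 1 GC box. Over all 32851 windows in the table the median GC content was 52.7%. Among them 35.7% held a GC box, 37.4% a CCAAT box, 7.15% an E-box, 3.65% the forkhead motif and 5.20% the AP-1 motif. The single Lpin1 window (chr12:16610917-16611216, reverse strand, GC content 55.3%) held none of the 5 motifs. Lpin1 itself spans chr12:16535669-16653903, so this window lies within the gene and not at its outermost start, for which there is no window. The further windows of Lpin2 start within Lpin2, the first of them with 1 GC box and the second with 3 CCAAT boxes and 1 forkhead motif. These matches describe letters in a window and nothing about binding.

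The label of the cells was checked against marker genes. Of 9 osteoblast markers with a probe, 7 were detected on all 12 arrays, among them Col1a1, Alpl, Ibsp, Bglap and Sp7, and the osteocyte marker Dmp1 was detected on none. The osteoblast markers summed to an intensity of 114533 to 138323 in DMSO, 104207 to 142333 after 2 h and 106695 to 125637 after 6 h. The brightest were Col1a1, Col1a2 and Sparc, with log2 group means of 14.66 to 15.46, so this sum says little about the others. Of the 8 with a kept probe, Sp7, the gene for osterix, a transcription factor of bone-forming cells, fell, with log2 changes of -2.10 ± 0.07 at 2 h and -4.23 ± 0.07 at 6 h. Alpl, for alkaline phosphatase, had -0.15 ± 0.10 at 2 h, which did not pass, and fell at 6 h (-1.15 ± 0.10), and the other 6 did not pass at either time. Of 7 adipocyte markers, 6 were detected on none, including Adipoq, Fabp4 and Plin1, and Lipe, which encodes hormone-sensitive lipase, was detected on 2 arrays. The summed adipocyte marker intensity was 633 to 654 in DMSO, 639 to 726 after 2 h and 583 to 652 after 6 h. With 6 of the 7 probes undetected, this sum is largely background, beside array medians of 93.2 to 110.1 per probe. Of 6 skeletal muscle markers 3 were detected on no array, and so were 3 of 5 macrophage and blood markers, with Des and Lyz2 detected on all 12. Their sums were 761 to 876, 677 to 870 and 702 to 741 for muscle, and 654 to 820, 622 to 842 and 551 to 621 for macrophage and blood, in the same order of groups. These sums also include the background of undetected probes. Among those with a kept probe, Des fell at both times (-0.36 ± 0.11 and -0.32 ± 0.11), Acta1 at 2 h alone (-0.67 ± 0.13) and Lyz2 at 6 h alone (-0.41 ± 0.10). Csf1r was called lower at 6 h alone, but on a fitted value below detection, and Myog passed at neither time. The part of other cell types, and of the fall of Sp7 and Alpl, in the results below was not tested. In RNA from whole cultures, fewer cells of a type and less RNA per cell cannot be told apart.

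Between 14904 and 16065 probes were detected per array, at a detection p under 0.01. Arrays of one group differed from each other with an SD of 0.162 to 0.236 over genes on the log2 scale, and arrays of different groups with an SD of 0.543 to 0.885. Values on the log2 scale below are background-corrected and quantile-normalized intensities. Errors (±) are limma's standard errors, from 4 arrays per group, unless named as an SD, and a gene is said to have risen or fallen where its Benjamini-Hochberg adjusted p was under 0.05. Most genes passed that test. Of the 9153 genes, 58.6% were called at 2 h against DMSO (27.8% rose and 30.7% fell), 77.4% at 6 h against DMSO (38.9% rose and 38.5% fell) and 62.7% at 6 h against 2 h (34.4% rose and 28.4% fell).

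Pnpla2 had higher values in SAHA than in DMSO at both times, with the upward change of largest size among the 4 genes. Its only probe, ILMN_2687745, was detected on all 12 arrays. Deposited intensities were 700.4, 734, 887 and 829 in DMSO, 3624, 3341, 2997 and 2284 after 2 h, and 3454, 3699, 3189 and 3183 after 6 h. Every SAHA sample was above every DMSO sample, and the 2 h and 6 h samples overlapped on this scale. Normalized log2 values were 9.42, 9.53, 9.48 and 9.66 in DMSO, 11.32, 11.45, 11.43 and 11.33 after 2 h, and 11.68, 11.84, 11.94 and 11.70 after 6 h. After normalization no groups overlapped, and the order was DMSO, 2 h, 6 h from low to high.

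Group means for Pnpla2 were 9.52 ± 0.10, 11.38 ± 0.07 and 11.79 ± 0.12 (log2, SD, n = 4). The fitted log2 change was 1.86 ± 0.07 at 2 h (3.63-fold higher) and 2.27 ± 0.07 at 6 h (4.81-fold higher). The step from 2 h to 6 h was 0.41 ± 0.07 on the log2 scale (1.32-fold), and it was 0.17 ± 0.18, within 1 standard error of 0, when the arrays were not normalized to each other. Counting Pnpla2 itself, 32 genes, or 0.350% of all, lay as far up at 2 h, and 68 genes, or 0.743%, at 6 h.

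Lpin3 went the other way and left the range of detection. It encodes the third lipin, which in mouse fat tissue works beside lipin 1. Its only probe, ILMN_2633215, read 513, 513, 590.1 and 578 in DMSO, 408, 297, 290.2 and 240.4 after 2 h, and 96.6, 90.7, 91.1 and 91.0 after 6 h. The probe was detected on all 4 DMSO and all 4 2 h arrays and on none of the 6 h arrays, where its detection p was 0.169 to 0.286. All samples of a group were apart from those of the other groups.

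Normalized log2 values of Lpin3 were 8.91, 8.93, 8.84 and 9.07 in DMSO, 7.87, 7.61, 7.68 and 7.66 after 2 h, and 5.07, 5.001, 5.02 and 4.90 after 6 h. Group means were 8.94 ± 0.09, 7.71 ± 0.11 and 4.997 ± 0.07 (SD, n = 4), and the order was DMSO, 2 h, 6 h from high to low with no overlap. At 2 h the log2 change was -1.23 ± 0.07, or 2.35-fold lower than DMSO. Because the 6 h samples lay below detection, that level is only a bound: on the background-corrected scale Lpin3 was at least 7.15-fold lower than in DMSO and at least 3.04-fold lower than at 2 h. The bound holds for that scale alone, since the mean deposited intensities of 549 in DMSO and 92.4 at 6 h, background included, lie closer together. For this bound each 6 h array stood at its lowest detected signal, and the fitted log2 changes without it were -3.94 ± 0.07 and -2.71 ± 0.07.

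By the fitted value, 200 genes, or 2.19% of all, lay as far down as Lpin3 at 2 h. No rank is given for 6 h, where its level is a bound. The size of the Lpin3 change also depended on how background was handled. It was -1.001 at 2 h and -2.55 at 6 h with no background correction, and -0.98 and -2.51 on the authors' normalized values. Both 6 h values are smaller in size than the bound of -2.84.

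Lpin2 was higher in SAHA at both times. It encodes the lipin whose loss in humans causes Majeed syndrome, an inflammatory disease of bone. The probe that represents it, ILMN_1220680, was detected on all 12 arrays and read 352, 278, 435.0 and 417 in DMSO, 760.1, 676, 788 and 662 after 2 h, and 686, 604, 692 and 759.8 after 6 h. All SAHA samples were above all DMSO samples, and the SAHA groups overlapped each other. Its log2 values were 8.26, 7.87, 8.35 and 8.53 in DMSO, 8.93, 9.04, 9.42 and 9.45 after 2 h, and 9.25, 9.13, 9.68 and 9.53 after 6 h. The overlaps were the same on this scale.

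Means for Lpin2 were 8.26 ± 0.28, 9.21 ± 0.27 and 9.40 ± 0.25 (log2, SD, n = 4), a wider spread within groups than that of Pnpla2 or Lpin3. The log2 change was 0.96 ± 0.16 at 2 h (1.94-fold higher) and 1.14 ± 0.16 at 6 h (2.21-fold higher). The order was DMSO, 2 h, 6 h, but the step between the SAHA groups, 0.19 ± 0.16, was near its own error and became -0.07 when the arrays were not normalized to each other. At 2 h 318 genes (3.47%) and at 6 h 689 genes (7.53%) lay as far up.

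Of the other three Lpin2 probes only ILMN_2576431 was kept, with detection on 2 of 4 DMSO, 3 of 4 2 h and 4 of 4 6 h arrays. Its log2 values were 5.81, 5.26, 6.35 and 6.03 in DMSO, 6.44, 6.43, 7.24 and 6.26 after 2 h, and 6.12, 6.73, 6.94 and 7.03 after 6 h. Its changes were 0.73 ± 0.26 at 2 h and 0.84 ± 0.26 at 6 h, in the direction of the representing probe, but here the groups overlapped. ILMN_2552541 and ILMN_2564426 were undetected on all 12 arrays, with detection p of at least 0.0192 and 0.26.

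Lpin1 showed the smallest changes. It encodes the founding member of the family, whose loss in the mouse gives fatty liver and a lack of fat tissue. The representing probe ILMN_2507725 was detected on all 12 arrays and read 200.1, 157, 186 and 173 in DMSO, 309.6, 226, 235 and 219 after 2 h, and 234, 181, 172 and 212 after 6 h. The 2 h samples were all above the DMSO samples on this scale, and the 6 h samples overlapped both. Its log2 values were 7.10, 6.62, 6.66 and 6.77 in DMSO, 7.39, 7.07, 7.28 and 7.48 after 2 h, and 7.33, 6.85, 7.06 and 7.21 after 6 h. After normalization 1 DMSO sample lay just above the lowest 2 h sample, so all 3 groups overlapped.

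Means for Lpin1 were 6.79 ± 0.22, 7.30 ± 0.18 and 7.11 ± 0.21 (log2, SD, n = 4), in the order DMSO, 6 h, 2 h from low to high. Samples of neighbouring groups in this order overlapped. The log2 change was 0.52 ± 0.12 at 2 h (1.43-fold higher) and 0.32 ± 0.12 at 6 h (1.252-fold higher), and the difference of 6 h from 2 h was -0.19 ± 0.12. The 6 h change was 0.28 ± 0.18 without normalization between arrays, 0.20 ± 0.08 with no background correction and 0.21 ± 0.08 on the authors' normalized values. Without array 2 of DMSO it was 0.27 ± 0.13, and without array 9 of 6 h it was 0.25 ± 0.13. Changes as far up were common, with 1109 genes (12.1%) at 2 h and 2978 genes (32.5%) at 6 h.

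The second detected Lpin1 probe, ILMN_3111744, had changes of 0.41 ± 0.15 at 2 h and 0.13 ± 0.15 at 6 h, with overlapping groups. Its log2 values ran from 6.21 to 6.95 in DMSO, from 6.86 to 7.33 after 2 h and from 6.66 to 6.99 after 6 h. The detected probes ILMN_2507725 and ILMN_3111744 are annotated to different RefSeq transcripts of Lpin1. Each of those transcripts also has a probe, ILMN_2738580 and ILMN_2592546 respectively, that was undetected on all 12 arrays. The level that an undetected probe would correspond to is unknown here, and levels were not compared between probes.

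**Figure D1:**
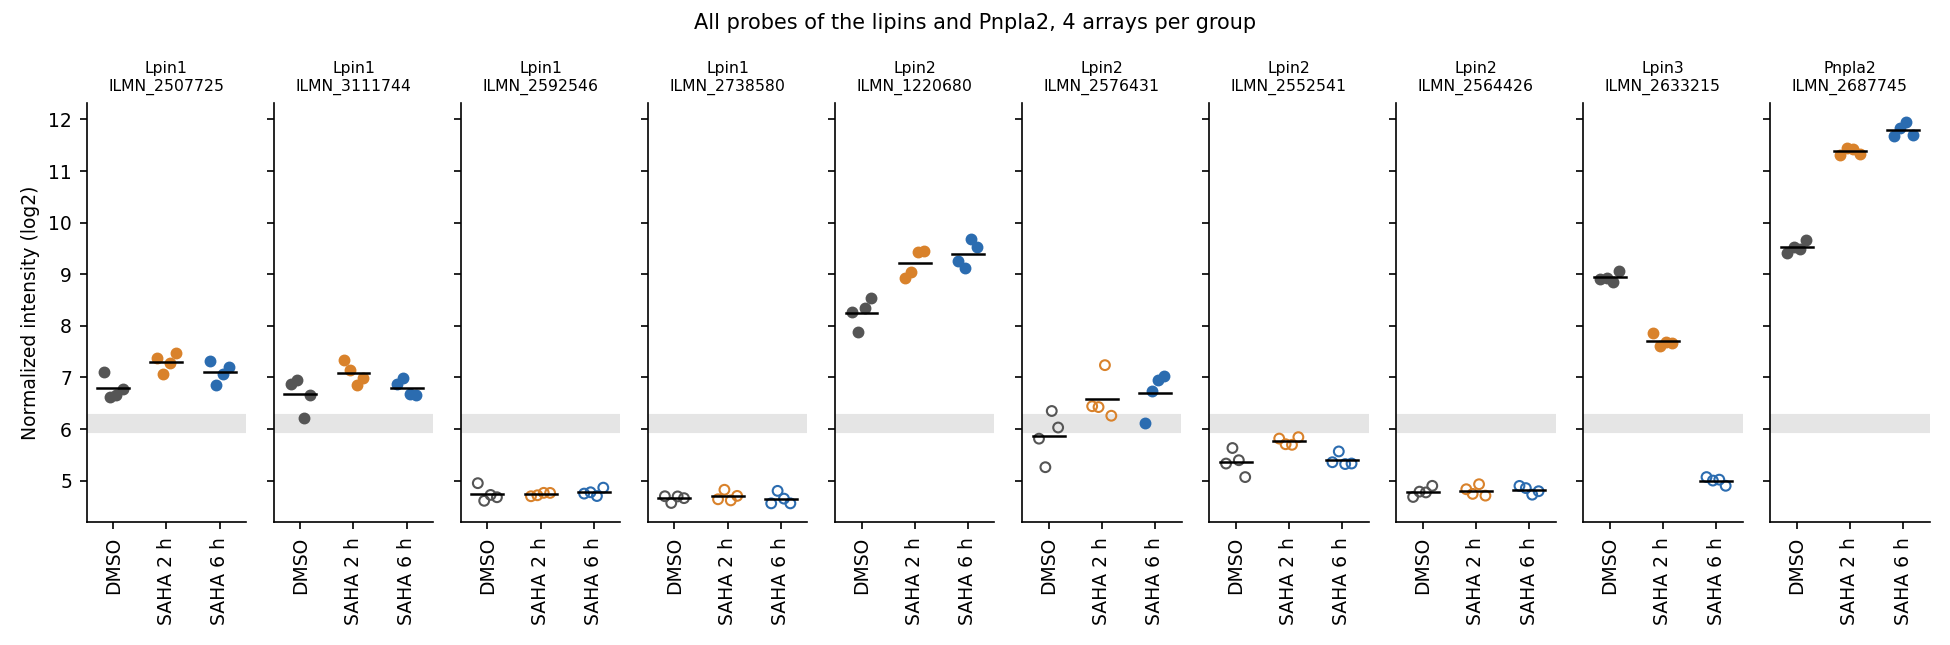
Normalized log2 intensity (vertical axis) of all 10 probes of Lpin1, Lpin2, Lpin3 and Pnpla2 in the 4 DMSO, 4 SAHA 2 h and 4 SAHA 6 h arrays, with the group mean as a line. Filled points mark groups in which the probe was detected on all 4 arrays and open points those in which it was not, and the grey band spans the lowest detected signals of the 12 arrays, 5.94 to 6.28. Pnpla2 lies higher in both SAHA groups, Lpin3 falls to open points at 6 h, and 4 probes have open points in all 3 groups.

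The plot of every probe by array shows the contrast of Pnpla2 and Lpin3 with the smaller and more scattered Lpin1 values. Set side by side, the representing probes gave log2 changes at 2 h of 1.86 for Pnpla2, 0.96 for Lpin2, 0.52 for Lpin1 and -1.23 for Lpin3. At 6 h they were 2.27, 1.14 and 0.32, with Lpin3 below detection. Both sets are measured against the same 4 DMSO arrays, so they are not independent. Groups did not overlap for 3 of the 4 genes at 2 h against DMSO, for 3 at 6 h against DMSO and for 2 at 6 h against 2 h, beside 53.4%, 70.8% and 55.4% of all genes. Nothing is read from these counts, because the genes were chosen on these contrasts.

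**Figure D2:**
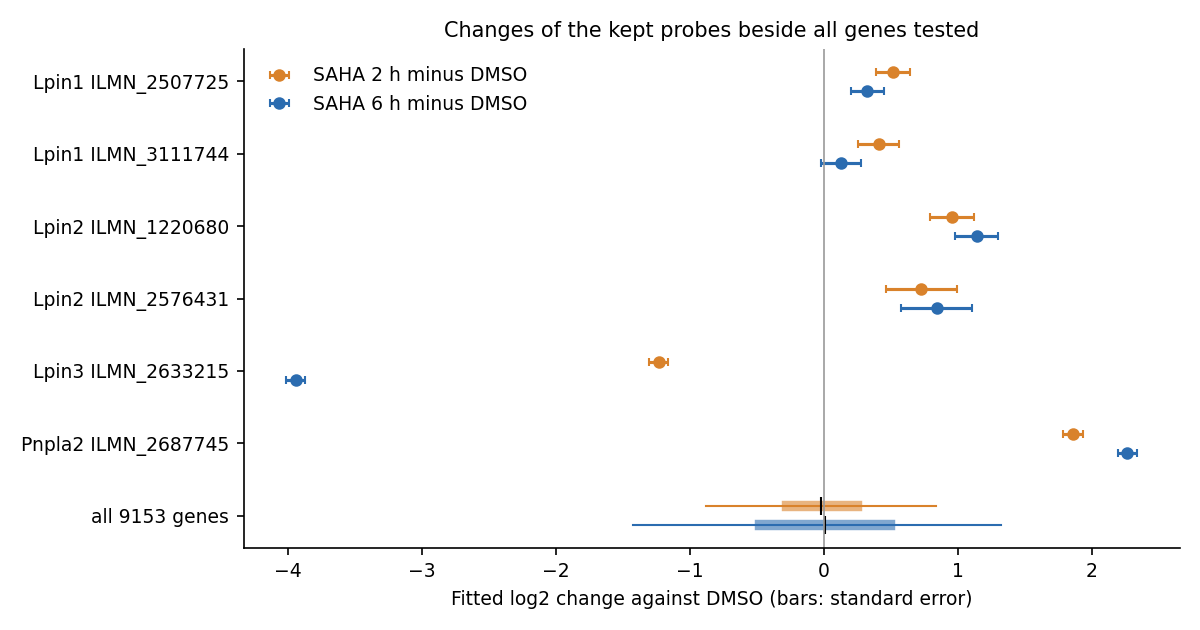
Fitted log2 change against DMSO (horizontal axis) of the 6 kept probes at 2 h (orange) and 6 h (blue), with standard errors as bars. The bottom row gives all 9153 genes, with the median as a tick, the middle 50% as a thick bar and the middle 90% as a thin line. The Pnpla2 and Lpin3 points lie outside the thin line at both times, the Lpin3 point at 6 h being a fitted value for a signal below detection, and the Lpin1 points lie within it.

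The plot of changes beside all genes shows how common each size was, since the median of all genes was -0.02 at 2 h and 0.01 at 6 h. Within groups the deviations of the 4 genes correlated in either direction. Across the 12 arrays, with each group's mean taken away, Pearson's r was 0.28 for Lpin2 with Pnpla2, 0.293 for Lpin1 with Lpin2 and -0.641 for Lpin1 with Pnpla2. It was -0.151 for Lpin2 with Lpin3, 0.157 for Lpin3 with Pnpla2 and 0.193 for Lpin1 with Lpin3. These values describe arrays that were normalized together and carry no test. Those for Lpin3 include its 6 h values, which lie below detection.

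Genes with the most similar course over the 12 arrays were listed for each of the 4, the 3 with the highest Pearson r among named genes. The measure is taken over all 12 arrays and therefore mostly reflects the differences between the groups. For Pnpla2 they were Fbxo31, an F-box protein gene (r = 0.997), Fam117a (0.997) and Usp28, a deubiquitinase gene (0.996). Their log2 changes at 2 h and 6 h were 2.00 and 2.505 for Fbxo31, 2.63 and 3.24 for Fam117a, and 1.303 and 1.54 for Usp28. For Lpin3 they were Tk1, the cytosolic thymidine kinase gene, Plekhg4 and Med16, a Mediator subunit gene, each with r = 0.998. The 6 h values of Lpin3 that enter this r lie below detection. Tk1 changed by -0.77 and -2.41, Plekhg4 by -0.82 and -2.56, and Med16 by -0.55 and -1.61.

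For Lpin2 the closest were Eya3, Baz2a and Mfhas1, with r of 0.978, 0.977 and 0.977. Baz2a, a chromatin remodelling gene, changed by 1.06 and 1.23, close in size to Lpin2, and Mfhas1 by 0.44 and 0.62. For Lpin1 they were Dnajc2, Purb and Rffl, with r of 0.937, 0.935 and 0.916, lower than for the other 3 genes. Dnajc2, a ribosome-associated chaperone gene, changed by 0.42 and 0.37, and Purb by 0.40 and 0.30. Rffl changed by 0.66 and 0.57, while its other kept probe gave -0.18 and -0.19. The similarity is that of the measured course and nothing more.

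The genes around this pathway were described through 8 lists with 117 genes, of which 71 were measured. Of the 46 others, 8 had no probe assigned to 1 symbol and 31 had probes detected on no array. G0s2, Lipe, Mgll, Gpam, Ppara, Pparg, Ppargc1a and Ctdnep1 were among those not measured. Among the 71, 26 rose, 24 fell and 21 did not pass at 2 h, so 70.4% were called against 58.6% of all genes, with a median log2 change of 0.06 against -0.02. At 6 h 38 rose, 21 fell and 12 did not pass, 83.1% against 77.4%, with a median of 0.23 against 0.01. From 2 h to 6 h 32 rose, 17 fell and 22 did not pass, 69.0% against 62.7%, with a median of 0.14 against 0.04. The balance at 2 h and between the times depended on scaling: without normalization between arrays it was 24 up and 5 down at 2 h, and 3 up and 18 down at 6 h against 2 h. Under that setting the 2 h calls described below for Hilpda, Pnpla7, Plpp5, Plpp3, Pemt, Pcyt1b, Cnep1r1, Acsl5 and Elovl6 were lost, as were the 6 h calls for Plin3, Abhd5 and Cnep1r1, each with its direction kept. The counts against DMSO and between the times include Srebf1, which was undetected in both SAHA groups. The counts by list below stand beside shares of all genes of 27.8% risen and 30.7% fallen at 2 h, and 38.9% and 38.5% at 6 h.

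**Figure D3:**
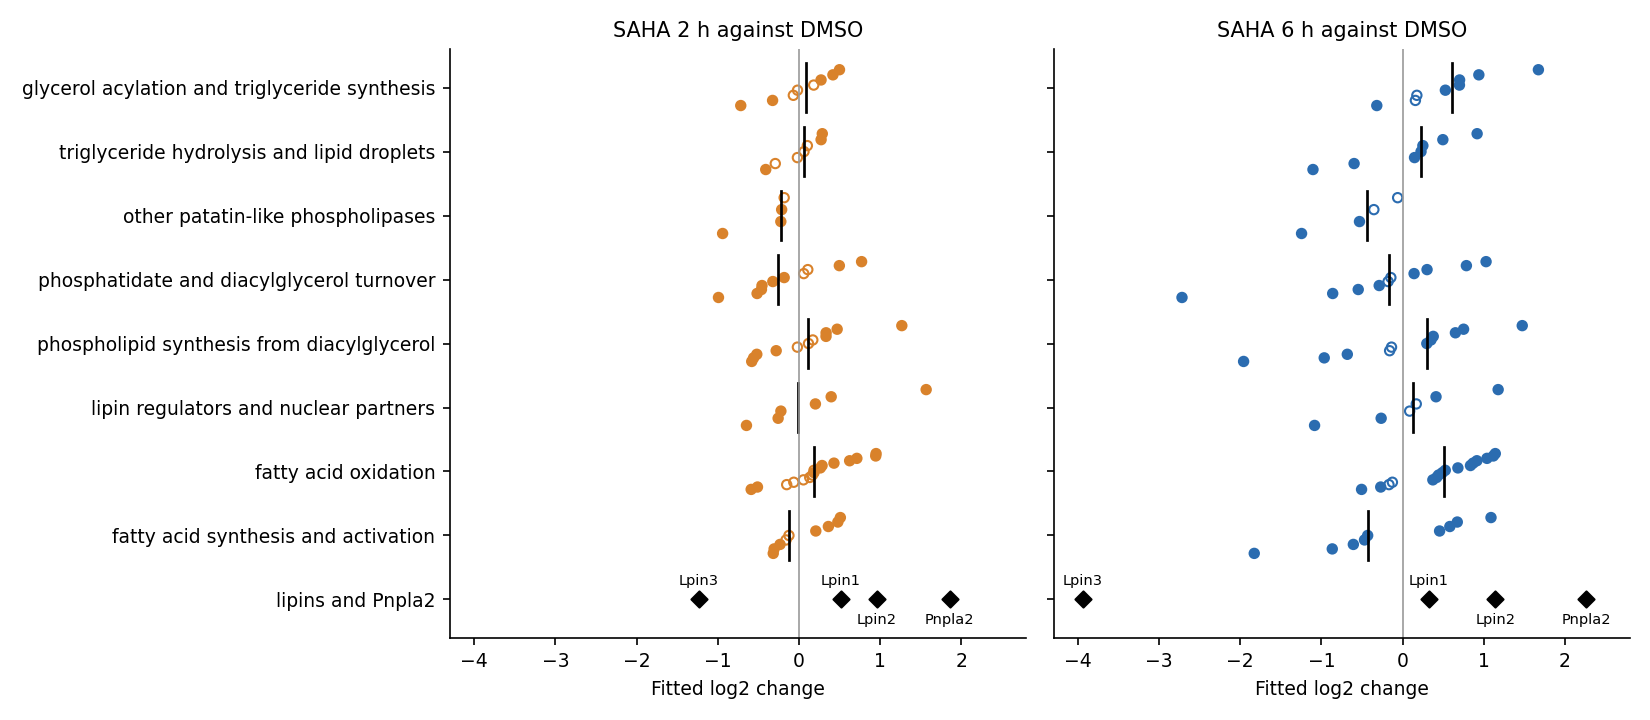
Fitted log2 change against DMSO (horizontal axis) at 2 h (left) and 6 h (right) for each measured gene of the 8 pathway lists, with filled points for genes called at an adjusted p under 0.05, open points for the others and a line at each list's median. Black diamonds give Lpin1, Lpin2, Lpin3 and Pnpla2. The list medians lie between -0.25 and 0.19 at 2 h and between -0.44 and 0.61 at 6 h, while the diamonds reach from -1.23 to 1.86 and, with Lpin3 at its fitted value, from -3.94 to 2.27.

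Upstream of the lipins, glycerol is acylated to phosphatidate, and downstream diacylglycerol is acylated to triglyceride. Of 8 measured genes of this list 3 rose and 2 fell at 2 h (median 0.08), and 5 rose and 1 fell at 6 h (median 0.61). Dgat2, which encodes one of the enzymes of the last step of triglyceride synthesis, ranged from 6.33 to 6.82 in DMSO, from 6.40 to 6.74 after 2 h and from 8.05 to 8.54 after 6 h. The DMSO and 2 h samples overlapped and the 6 h samples were all above them. Its log2 change was -0.02 ± 0.12 at 2 h (adjusted p = 0.914) and 1.67 ± 0.12 at 6 h (adjusted p = 1.47e-08, limma). Dgat1, the other gene for that step, had values of -0.07 and 0.16, and neither passed.

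Gpat4, for the first acylation of glycerol phosphate, rose by 0.50 ± 0.05 at 2 h and 0.70 ± 0.05 at 6 h. Among the genes for the second acylation, Agpat5 rose by 0.42 and 0.94, and Agpat1 had 0.18 at 2 h, which did not pass, and rose by 0.70 at 6 h. The 2 h value of Agpat1 did pass with only the 2 groups compared in the fit (adjusted p = 0.0447, limma). It also passed on the authors' values with the replicate block (0.0475). Agpat2, the member of that family best known from fat tissue, fell at both times, with log2 changes of -0.72 ± 0.10 and -0.32 ± 0.10, and its second kept probe gave -0.53 and -0.48.

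Around the lipase, of 7 measured genes of triglyceride hydrolysis and lipid droplets 2 rose and 1 fell at 2 h (median 0.06), and 5 rose and 2 fell at 6 h (median 0.23). Abhd5, the coactivator of the lipase, had log2 changes of 0.06 ± 0.06 at 2 h, which did not pass, and 0.15 ± 0.06 at 6 h, which passed with an adjusted p of 0.0299. That call was lost when single arrays of DMSO (1 or 4) or of 6 h (9 or 11) were left out, with median scaling (0.11, adjusted p = 0.284), with no probe filter (0.0535) and with a variance trend and robust fitting (0.0566). It was also lost on the authors' values (0.0964 ± 0.057), with an adjusted p of 0.128, or 0.116 with the replicate block. Hilpda, whose product inhibits the lipase, fell, with changes of -0.41 ± 0.06 and -0.60 ± 0.06.

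Plin2, which encodes a coat protein of lipid droplets, had -0.29 ± 0.16 at 2 h, which did not pass, and fell by 1.10 on the log2 scale at 6 h, where it was detected on 3 of 4 arrays. Its samples ranged from 7.22 to 7.76 in DMSO, from 7.11 to 7.29 after 2 h and from 5.88 to 6.72 after 6 h. Only the 6 h samples were apart from the others. With only the 2 groups compared in the fit, the 2 h value of Plin2 did pass (adjusted p = 0.0403, limma). Plin3, another coat protein gene, rose by 0.27 and 0.23. Lipa, which encodes the acid lipase of lysosomes, rose by 0.29 at 2 h and 0.92 at 6 h, the first of these calls being lost without array 2 of DMSO or arrays 7 or 8 of 2 h. With no probe filter the 2 h call of Lipa was lost too (adjusted p = 0.0533, limma).

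None of the 4 other measured genes of the patatin-like family, to which Pnpla2 belongs, rose against DMSO, beside 27.8% of all genes at 2 h and 38.9% at 6 h. With so few genes nothing is read from this count. Of the 4, Pnpla1 was detected on 2 of 4 arrays at 2 h and on 1 of 4 at 6 h. At 2 h 3 of the 4 fell and at 6 h 2 of the 4, with medians of -0.22 and -0.44. Pnpla6, which encodes the lysophospholipase known as neuropathy target esterase, fell, with log2 changes of -0.94 ± 0.08 and -1.24 ± 0.08, and its second probe gave -0.73 and -1.08. Its samples ranged from 8.40 to 8.66 in DMSO, from 7.42 to 7.67 after 2 h and from 7.10 to 7.43 after 6 h, with both SAHA groups below all DMSO samples. Pnpla7, its closest relative, had -0.21 and -0.53, the first of these calls being lost without arrays 2 or 4 of DMSO or 5 or 6 of 2 h. The 2 h call of Pnpla7 was also lost with median scaling (-0.17, adjusted p = 0.159, limma). The same held with no probe filter (0.0538) and with a variance trend and robust fitting (0.0703).

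Other enzymes that make or use phosphatidate and diacylglycerol divided in direction. Of 10 measured, 2 rose and 6 fell at 2 h (median -0.25), and 4 rose and 4 fell at 6 h (median -0.16). Plpp5, for a lipid phosphatase that does not belong to the lipins, fell, with log2 changes of -0.52 ± 0.10 at 2 h and -2.72 ± 0.10 at 6 h, and its second probe gave -0.51 and -3.00. Its samples ranged from 10.00 to 10.27 in DMSO, from 9.44 to 9.71 after 2 h and from 7.09 to 7.55 after 6 h, so that no groups overlapped.

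Plpp3, another lipid phosphate phosphatase gene, fell, with -0.46 ± 0.07 and -0.86 ± 0.07. Plpp6 fell at 2 h (-0.99 ± 0.06) and had -0.14 ± 0.06 at 6 h, which did not pass. Its other kept probes each gave -0.92 at 2 h, but differed at 6 h, with -0.45 ± 0.06 and -0.16 ± 0.09. The 6 h call of the representing probe lay at the threshold (adjusted p = 0.05, limma). The 6 h value of Plpp6 passed under 7 other settings and without array 1 of DMSO or array 11 of 6 h. Its adjusted p was 0.000417 with the mean of the kept probes (-0.25) and 0.0442 to 0.0483 under the other 6, which were an offset of 50, no background correction, the authors' values with and without a replicate block, detection on all 12 arrays, and a variance trend with robust fitting. Its values ran from 9.57 to 9.74 after 2 h, below all other samples, and from 10.39 to 10.58 after 6 h, overlapping the DMSO range of 10.56 to 10.75. Dgka, which encodes a kinase that turns diacylglycerol back into phosphatidate, rose by 0.77 ± 0.06 and 1.03 ± 0.06, with no overlap between any groups.

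**Figure D4:**
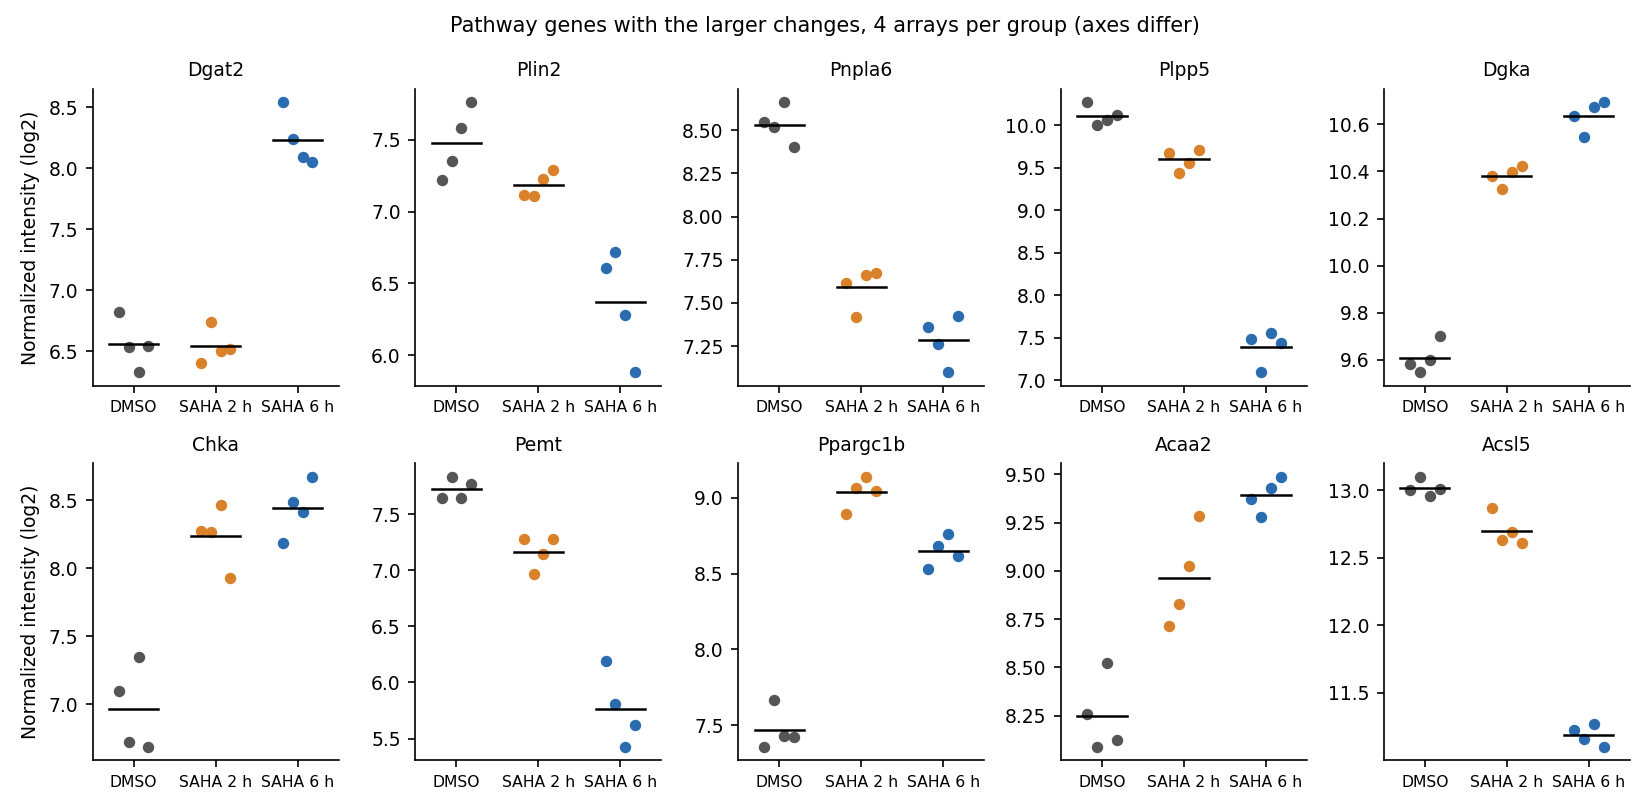
Normalized log2 intensity (vertical axes, with a different range in each panel) of 10 pathway genes in the 4 DMSO, 4 SAHA 2 h and 4 SAHA 6 h arrays, with the group mean as a line. Dgat2 is at the DMSO level after 2 h and higher after 6 h, Plpp5, Pemt and Acsl5 are lowest after 6 h, and Ppargc1b is highest after 2 h. Points are filled whether or not the probe was detected, and Pemt was detected on 1 of 4 arrays at 6 h.

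Diacylglycerol is also the substrate for the major membrane phospholipids, and of 11 measured genes of that branch 4 rose and 4 fell at 2 h (median 0.12), and 6 rose and 3 fell at 6 h (median 0.30). Chka, which encodes the choline kinase that opens the route to phosphatidylcholine, rose by 1.27 ± 0.15 and 1.48 ± 0.15, from 6.69 to 7.35 in DMSO to 7.93 to 8.47 and 8.19 to 8.67. Both SAHA groups were above all DMSO samples and overlapped each other. Pcyt1b, for an enzyme of the same route, fell, with -0.58 and -0.97. Their relatives went the other way. Pcyt1a rose by 0.34 ± 0.10 at 2 h and 0.35 ± 0.10 at 6 h. Chkb fell, with -0.52 ± 0.08 and -0.68 ± 0.08. The single calls of Pcyt1a and Chkb under the alternative settings were not examined. Pemt, whose product methylates phosphatidylethanolamine to phosphatidylcholine, fell, with -0.56 ± 0.13 and -1.96 ± 0.13. It was detected on 1 of 4 arrays at 6 h, so the size of that fitted fall rests largely on signal below detection.

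Of 6 measured regulators and nuclear partners of lipins, 3 rose and 3 fell at 2 h (median -0.01, or 0.01 with genes below detection at their bounds), and 2 rose and 2 fell at 6 h (median 0.13). Ppargc1b, a coactivator related to PGC-1α, rose by 1.57 ± 0.08 at 2 h and 1.18 ± 0.08 at 6 h. It ranged from 7.36 to 7.67 in DMSO, from 8.89 to 9.14 after 2 h and from 8.53 to 8.76 after 6 h, and no groups overlapped. Srebf1, for the transcription factor SREBP-1 of lipid synthesis, was undetected in both SAHA groups. Its bounds were at least 1.14-fold lower at 2 h and at least 1.12-fold lower at 6 h. It was kept through its 4 DMSO arrays alone, and its calls in the counts above rest on fitted values below detection, so no p-value is given. Cnep1r1, which encodes the partner of the phosphatase that acts on lipins, rose by 0.20 at 2 h and 0.41 at 6 h. The 2 h call was lost without arrays 3 or 4 of DMSO or 5, 6 or 7 of 2 h. It was also lost with median scaling (0.23, adjusted p = 0.0759, limma) and with no probe filter (0.0567).

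Fatty acids released by the lipase can be oxidized, and of 16 measured genes of fatty acid oxidation 8 rose and 2 fell at 2 h (median 0.19), and 12 rose and 2 fell at 6 h (median 0.51). Acaa2, for the last enzyme of the mitochondrial cycle, rose by 0.71 ± 0.12 and 1.14 ± 0.12. Etfdh, which passes its electrons to the respiratory chain, rose by 0.63 ± 0.09 and 1.12 ± 0.09, while its second probe gave 1.45 and 1.43. Hadha, for a subunit of the trifunctional protein, rose by 0.95 and 0.87. Pdk4, whose kinase holds back pyruvate dehydrogenase, rose by 0.95 and 1.04.

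Of 9 measured genes of fatty acid synthesis and activation 4 rose and 3 fell at 2 h (median -0.12), and 4 rose and 5 fell at 6 h (median -0.43). Acsl5, which encodes an acyl-CoA synthetase, fell, with -0.32 ± 0.07 and -1.83 ± 0.07. It ranged from 12.96 to 13.10 in DMSO, from 12.61 to 12.87 after 2 h and from 11.10 to 11.27 after 6 h, with no overlap. Acsl3, for another acyl-CoA synthetase, rose by 0.48 and 0.67. The elongase genes moved apart, as Elovl5 rose by 0.51 and 1.09 and Elovl6 fell, with -0.31 and -0.87.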

How the data were processed

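The deposited table that was not normalized holds linear signal intensities by probe and array, per the file headers. Each deposited intensity has a detection p-value beside it. A second table holds the authors' normalized intensity values, whose normalization is not given in the sources used here, as is the software behind both. The intensities were corrected with the normexp model and the detection p-values, an offset of 16 was added, and the arrays were quantile-normalized (neqc, limma 3.58.1, R 4.3.3). The offset shrinks the changes of dim probes, and both normalization and equal RNA input would hide a shift shared by all genes.

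Probes with a detection p under 0.01 on at least 4 of 12 arrays were kept (16431 of 45281). Of all probes 34885 had 1 gene symbol in the platform annotation, 18 several and 10378 none. For each of 9153 genes the kept probe of highest mean intensity was used. A linear model over the 3 groups was fitted with lmFit and eBayes to all genes, two-sided, with Benjamini-Hochberg adjustment and a threshold of 0.05, after the fit had been tested on simulated data. Where no array of a group detected a probe, the fold is a bound against the lowest detected signal of each of those arrays. Precision is limited by the number of arrays, with a median standard error of 0.08 over genes. Slides and dates of the arrays are not given in the labels.

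The 4 genes, the lists and the tests were chosen with earlier results of these data known. Named were every probe of the 4 genes, 16 pathway genes fixed by name where measured, from each list the 3 genes of largest called change at 6 h and the 2 of largest at 2 h with groups that do not overlap, and the 3 genes most like each of the 4. Pcyt1a and Chkb were added beside their relatives. Alternatives covered background, normalization, the authors' values, probe filter and choice, the variance model, the groups in the fit and each array left out. Gene positions and start regions come from RefSeq for GRCm38.p6, and the build behind the platform annotation is not given in the sources used here.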

Additional observations from a re-analysis of the deposited data

Results flagged for a closer look

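In DMSO, array 2 stood apart from the other 3 for Lipa, at 11.62 against 11.87 to 11.92 on the log2 scale, so that the gap was 0.831 of the range of the group. It was the only such case in 147 groups of 4 arrays examined, and chance gives about 1 in 20. No kept probe of Lpin1, Lpin2, Lpin3 or Pnpla2 showed one.

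Of the 31 pathway genes named by the rules above, 24 differed between 6 h and 2 h of SAHA by limma's test of that difference (adjusted p under 0.05). That test called 69.0% of the 71 measured pathway genes and 62.7% of all genes. Many of the 31 were named for large changes against DMSO in these same arrays, so nothing is read from their count. Around triglyceride synthesis the log2 difference was 1.69 for Dgat2, 0.52 for Agpat5, 0.52 for Agpat1, 0.40 for Agpat2 and 0.20 for Gpat4. Around hydrolysis and lipid droplets it was 0.63 for Lipa, -0.81 for Plin2 and -0.19 for Hilpda, and for the patatin-like genes -0.30 for Pnpla6 and -0.32 for Pnpla7. Among enzymes of phosphatidate and diacylglycerol it was -2.20 for Plpp5, 0.85 for Plpp6, -0.40 for Plpp3 and 0.26 for Dgka. In the phospholipid branch it was -1.40 for Pemt (mostly undetected at 6 h) and -0.38 for Pcyt1b, and among the regulators -0.39 for Ppargc1b and 0.21 for Cnep1r1. For fatty acid oxidation it was 0.43 for Acaa2 and 0.49 for Etfdh, and for fatty acid synthesis and activation -1.51 for Acsl5, 0.58 for Elovl5, -0.56 for Elovl6 and 0.19 for Acsl3. Srebf1 was left out, since it was undetected in both groups. Second kept probes of Agpat2 and Etfdh gave differences near 0, with 0.05 ± 0.11 and -0.02 ± 0.14. Weak differences in the same direction came from the second probe of Plpp3 (-0.24 ± 0.15) and from another probe of Acaa2 (0.19 ± 0.14). Plpp6 was lower than DMSO at 2 h and nearer to it at 6 h on all 3 of its kept probes.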

How the results depend on the processing

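No change of the 4 genes against DMSO changed direction under any alternative run. Without normalization between arrays, where the median of all genes shifted to 0.19 at 2 h and -0.20 at 6 h against 2 h, Lpin3 changed by -1.06 at 2 h and -2.89 from 2 h to 6 h, Pnpla2 by 2.05 and 0.17, and Lpin1 from 2 h to 6 h by -0.405. That setting called 3470 genes at 2 h (2529 up, 941 down) and 3517 at 6 h against 2 h (725 up, 2792 down), against 5360 and 5743, and 29 and 21 pathway genes against 50 and 49. With an offset of 50 Lpin3 changed by -1.11, -2.99 and -1.88 (2 h, 6 h, 6 h against 2 h). With no background correction it changed by -1.001, -2.55 and -1.55, and Pnpla2 at 6 h by 2.16. On the authors' values, with and without the replicate block, Lpin3 changed by -0.98, -2.51 and -1.53 and Pnpla2 by 1.71 and 2.14 against DMSO. The causes were not tested. Requiring detection on all 12 arrays gives no Lpin3 value.

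Leaving out 1 array at a time gave 0.46 to 0.62, 0.25 to 0.43 and -0.27 to -0.11 for Lpin1, 0.83 to 1.05, 1.01 to 1.23 and 0.09 to 0.28 for Lpin2, -1.29 to -1.19, -3.97 to -3.90 and -2.74 to -2.62 for Lpin3, and 1.83 to 1.91, 2.21 to 2.32 and 0.35 to 0.44 for Pnpla2, in the same order. Counts were 4973 to 5392, 6809 to 7119 and 5336 to 5727 genes, and 46 to 52, 58 to 62 and 45 to 48 pathway genes. Replicate numbers stand only with the authors' values. Same-numbered samples of different groups correlated at -0.036 to 0.356 in their deviations (median 0.202), with 10 of 12 pairs over 0.1. Differently numbered samples of different groups correlated at -0.367 to 0.293 (median -0.04), with 7 of 36 pairs over 0.1. Of the 12 samples, 9 were closest to one with their own number. Whether the numbers mark paired samples was not tested, and the main fit treats the samples as unpaired. The replicate block moved the pathway counts from 51, 60 and 50 to 53, 62 and 53, and the counts of all genes from 5506, 7106 and 5836 to 5877, 7301 and 6148. It left the fitted changes as they were and lowered standard errors, for Lpin1 from 0.08 to 0.05 and for Lpin2 from 0.12 to 0.065, beside changes from 2 h to 6 h of -0.14 and 0.15. For single pathway genes 1358 of the values under alternatives kept their side of the threshold, 39 lost the call and 15 gained one. A dim signal limits Lpin3 at 6 h and Srebf1 in SAHA to bounds, and leaves the size of the Pemt change at 6 h uncertain.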
